A study of Mus musculus with 31 samples.

Results

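The cytochrome P450 enzymes of families 1 to 4 were followed in mouse lung. They were taken as every probe whose gene name on the array is Cyp, a digit from 1 to 4, a lowercase letter and a number, with Cyp2f2 left out. The array carried 66 such genes on 87 probes. Each gene was read from its brightest probe, and 51 of the 66 lay well above background on 15 or more of 29 arrays, among 23192 features that passed the same filter. Lungs came from female C57BL/6 mice aged 6 weeks, 1 mouse per array, on Agilent arrays with 1 dye (Cy3). Oleic acid, a fatty acid whose intravenous injection injures the endothelium of the lung, went into the tail vein in a volume of 200 µl, with 1.2 µl of it for each g of mouse. Control mice received 200 µl of saline (physiological serum). Both treatments were given under xylazine and ketamine, so that every mouse had been anaesthetised and injected, and no mouse without injection was among them. Lungs were taken at 1, 1.5, 3, 4, 18 or 24 h. Saline was represented by 3 mice at 1 h and 2 at each other time, and oleic acid by 3 mice at 1, 4, 18 and 24 h and by 2 at 1.5 and 3 h.

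Cytochrome P450 enzymes are haem proteins of the endoplasmic reticulum that insert an oxygen atom into drugs, pollutants, steroids and fatty acids, with electrons passed on by P450 reductase. Families 1 to 3 are known chiefly for foreign chemicals and steroids, and many of them are switched on by ligand-bound receptors: the aryl hydrocarbon receptor (AhR) for family 1, CAR and PXR for parts of families 2 and 3. Family 4 oxidises the tail carbon of fatty acids and eicosanoids, and its 4a members are targets of the fatty acid receptor PPAR alpha. The liver makes most P450 protein in the body. The lung has its own set in airway and alveolar epithelium and in endothelium, where P450s activate or clear inhaled chemicals.

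Expression values are the log2 of the processed spot signal minus the array's own 75th percentile, so they compare the same gene between arrays and not one gene with another. Moderated 2-sided tests were run in limma with all 29 arrays and 12 group means, with Benjamini-Hochberg adjustment over the 23192 features of each comparison, and a gene was called at an adjusted p under 0.05. Parentheses after a difference hold its 95% interval. With 2 or 3 mice per group, the number of arrays limits the precision. The third oleic acid array of 1.5 h and the second of 3 h were left out: their signal rose with spike-in amount at slopes of 1.66 and 0.751, whereas those of the 29 arrays used lay between 0.937 and 1.06. The arrays lay on 4 slides: all 1 h arrays were on slide 1, most of 1.5 and 3 h on slide 2, all of 4 h with saline 18 h on slide 3, and oleic acid 18 h with all of 24 h on slide 4. Markers of the lung's own cells ranged less between arrays than hepatocyte markers. The mean log2 level ranged from 5.81 to 6.61 for club cell markers, from 5.61 to 6.14 for alveolar type 2 markers and from 2.56 to 3.29 for endothelial markers. For smooth muscle markers it ranged from 3.22 to 4.11. Neutrophil markers ranged from 1.69 to 3.77, and hepatocyte markers from 0.28 to 6.04, the widest range of the 12 marker lists.

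Of the 51 genes, 39 lay above background on every array and 12 on 16 to 28 arrays. Family 1 was kept whole, with 3 of 3 genes. Family 2 kept 30 of 41, family 3 kept 6 of 7 and family 4 kept 12 of 15. Among the 15 genes not kept, Cyp4f40 was above background on 0 arrays, Cyp2b19, Cyp2c65, Cyp2g1 and Cyp2w1 on 1, Cyp2c66 and Cyp2j5 on 3, Cyp4x1 on 5, Cyp3a44 on 6, Cyp2b23 on 7, Cyp2c39 on 9, Cyp2a22 on 11, and Cyp2d13, Cyp2d34 and Cyp4a32 on 14. Cyp1a2 and Cyp2c55, each above background on 16 arrays, were the kept genes nearest to the limit. The members are close relatives, and some probes may read several of them. Per the array's annotation the Cyp2a4 probe also matches Cyp2a5, the Cyp2c68 probe also Cyp2c40 and Cyp2c69, and the Cyp2j13 probe also Cyp2j12. The probes of Cyp4a10 and Cyp4a31 were 93.62% identical over 47 bases, those of Cyp2c67 and Cyp2c68 93.22% over 59, and those of Cyp2c37 and Cyp2c50 87.5% over 40, so the members of each pair are not independent. Cyp2c44 is now named Cyp2c23.

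**Figure D1:**
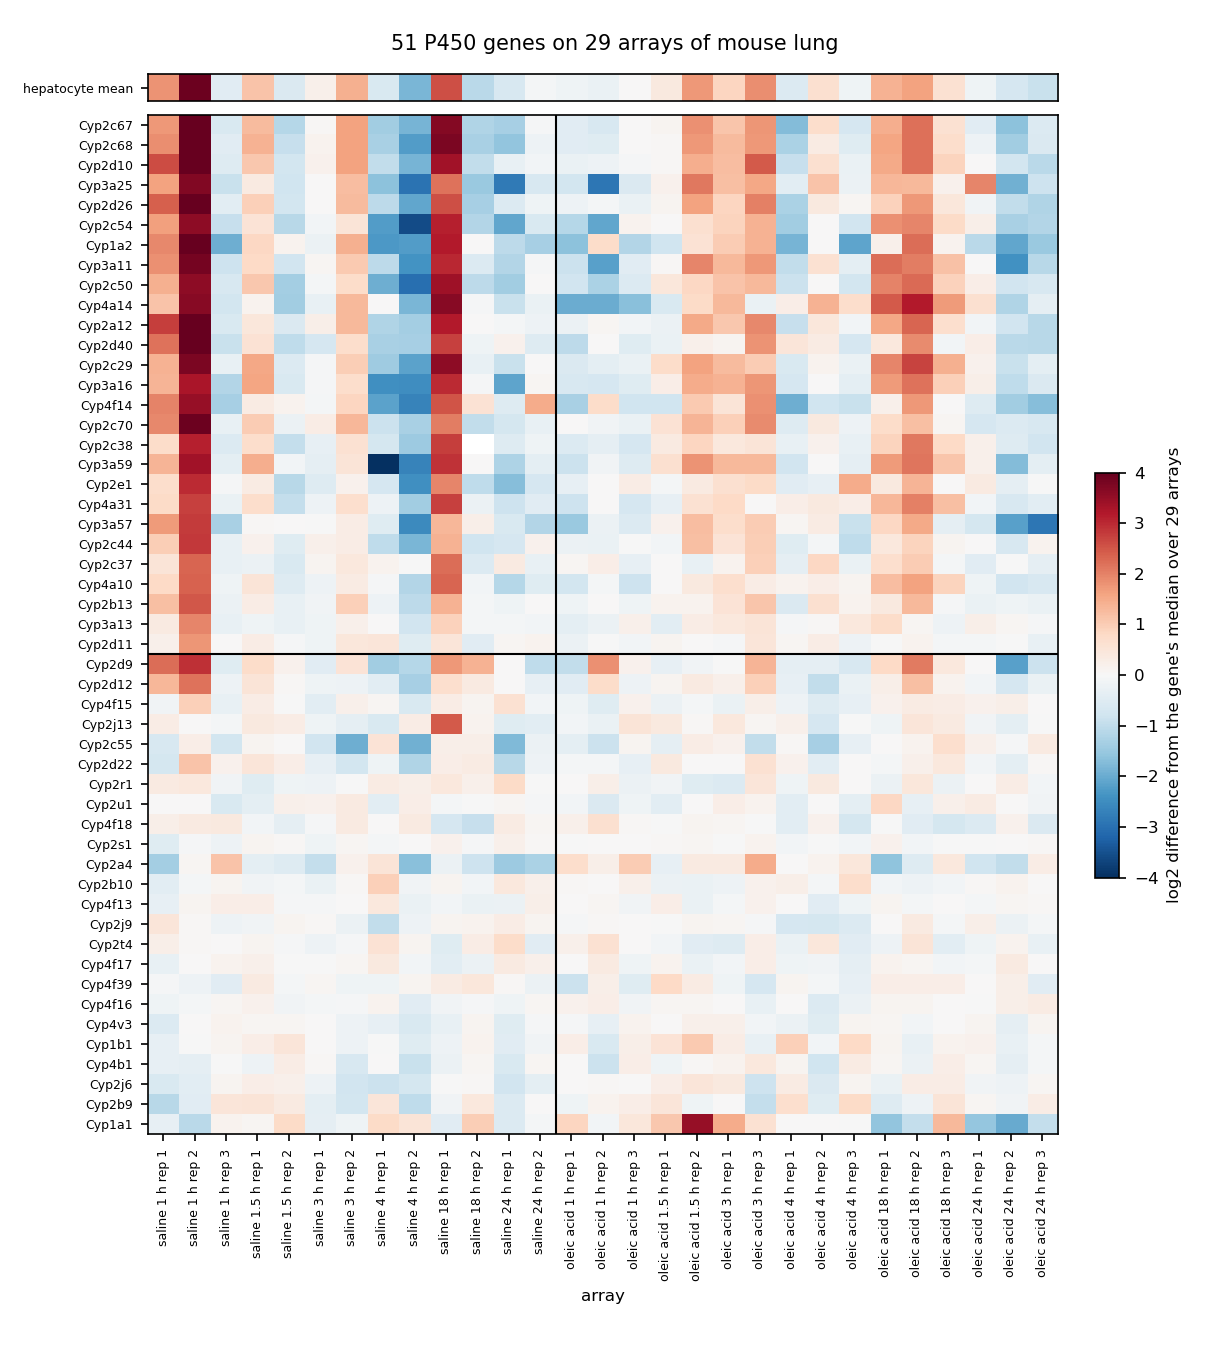
Heat map of 51 P450 genes (rows) on 29 arrays (columns, saline to the left of the vertical line), coloured by the log2 difference from the gene's median over the 29 arrays, with the mean of 10 hepatocyte markers in the strip on top. The 27 genes above the horizontal line, whose slope on the hepatocyte mean was called, brighten and fade with the strip, whereas most of the 24 genes below it vary little. The white cell is Cyp2c38 on saline 18 h replicate 2, whose spot carried an outlier mark.

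The probes of the 6 genes called in any comparison are shown because their signal is the measurement behind each call. The first 30 of 60 bases are given 5′ to 3′, with no base in capitals. In mm9, as the array annotation gives it, the whole probes lie at chr9:57551535-57551594 (Cyp1a1, + strand), chr19:39465415-39465474 (Cyp2c38, - strand), chr5:146197274-146197333 (Cyp3a16, - strand), chr5:146920638-146920697 (Cyp3a59, + strand), chr17:33042214-33042273 (Cyp4f14, - strand) and chr8:74512381-74512440 (Cyp4f18, - strand). Whether they lie in coding or untranslated exons was not looked up.
Cyp1a1: gataatttgctagtgtaacaaagaagattc
Cyp2c38: aatggattaattgctctgccaccccattac
Cyp3a16: gatgcagtcataactggagcgtgattttcc
Cyp3a59: ggcaacattgatccatatatatacatgccc
Cyp4f14: gactattctctgaacaacataggaagccaa
Cyp4f18: actctcctatccatccacccacctgtgcct

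Promoters were taken from RefSeq (GRCm38.p6) as the 250 bases before the start of the gene, and 42 of the 51 genes matched an entry. They were searched on both strands for GCGTG, the core of the element bound by AhR, CAAAGTCCA, a site of the liver factor HNF4, AGGTCA, a nuclear receptor half-site, and the palindromic site of HNF1. None of the spellings contains another. GCGTG occurred in 10 of the 42 promoters, against 28.2% of 32851 promoters, AGGTCA in 9, against 14%, and the HNF1 site in 0, against 0.00913%. CAAAGTCCA occurred in 5 of the 42, against 0.384% of all promoters. All 5 of these genes belong to the 27 whose level followed hepatocyte markers (5 of the 22 matched, against 0 of the 20 matched others). The same split was 2 of 22 against 8 of 20 for GCGTG, and 7 of 22 against 2 of 20 for AGGTCA. The members share ancestry, the spellings were chosen with expression values known, and a match is a description of the letters only. The Cyp1a1 promoter (chr9:57697363-57697612, + strand) is printed because Cyp1a1 changed over time in oleic acid mice. Its GCGTG, in capitals, begins at position -54 from the start. Only these core letters were matched, bases beyond the 250 were not searched, and whether AhR binds there was not tested.
Cyp1a1: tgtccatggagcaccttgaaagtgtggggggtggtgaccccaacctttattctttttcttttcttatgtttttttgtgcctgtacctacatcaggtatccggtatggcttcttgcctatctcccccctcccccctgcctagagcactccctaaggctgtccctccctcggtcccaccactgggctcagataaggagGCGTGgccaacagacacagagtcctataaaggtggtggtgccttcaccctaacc
For the 5 genes with CAAAGTCCA, in capitals, 41 bases around it are printed on the strand of the gene (all on the - strand), from chr19:39649143-39649183 (Cyp2c67), chr19:39741154-39741194 (Cyp2c68), chr19:40187326-40187366 (Cyp2c70), chr5:145879939-145879979 (Cyp3a11) and chr5:145469798-145469838 (Cyp3a16). The site begins at positions from -125 (Cyp2c67) to -64 (Cyp2c70) from the start.
Cyp2c67: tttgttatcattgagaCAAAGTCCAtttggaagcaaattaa
Cyp2c68: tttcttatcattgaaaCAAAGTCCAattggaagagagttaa
Cyp2c70: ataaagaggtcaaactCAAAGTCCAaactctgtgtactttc
Cyp3a11: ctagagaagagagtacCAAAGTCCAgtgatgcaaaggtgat
Cyp3a16: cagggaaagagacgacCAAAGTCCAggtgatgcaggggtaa

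Cyp1a1, the AhR-induced enzyme that oxidises polycyclic hydrocarbons, was the member whose level fell from the early to the late times in oleic acid mice. In saline mice its level was -1.72, -2.45 and -1.23 at 1 h, -1.29 and -0.6 at 1.5 h, -1.72 and -1.54 at 3 h, -0.62 and -0.87 at 4 h, -1.83 and -0.38 at 18 h, and -1.94 and -1.45 at 24 h. The oleic acid arrays gave -0.51, -1.48 and -0.93 at 1 h, -0.32 and 2.11 at 1.5 h, 0.11 and -0.78 at 3 h, -1.38, -1.38 and -1.39 at 4 h, -2.95, -2.33 and -0.08 at 18 h, and -2.94, -3.39 and -2.34 at 24 h. The oleic acid 24 h arrays were all below every early oleic acid array, while at 18 h replicate 3 stayed among the early values, and oleic acid 1.5 h replicate 2 was the highest of all. The mean of 18 and 24 h lay 1.89 below the mean of 1 to 4 h on the log2 scale, a difference of -1.89 (-2.72 to -1.06, limma adjusted p = 0.00817). It was 1 of 51 members called in this comparison, in which 5.82% of all features were called and 3.56% were called lower. The call held in 29 of 29 fits that left out 1 array, with differences from -2.32 without oleic acid 18 h replicate 3 to -1.59 without oleic acid 1.5 h replicate 2. It was lost with median centring (-1.94, adjusted p = 0.0505) and with all 31 arrays (-1.92, adjusted p = 0.0604). The late oleic acid arrays were on slide 4 and the early ones on slides 1 to 3, so time and slide cannot be told apart.

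In saline mice the same late minus early difference of Cyp1a1 was -0.12 (-1.08 to 0.84, adjusted p = 0.951), with 0 of 51 members called beside 2.95% of features. The difference between both treatments' changes was -1.77 (-3.04 to -0.50), with an unadjusted p of 0.00871 and an adjusted p of 1, a contrast added after seeing the data in which 0% of features were called. Cyp1a1 levels differed by 0.83 (0.09 to 1.58, adjusted p = 0.621) between oleic acid and saline over 1 to 4 h, and by -0.94 (-1.97 to 0.09, adjusted p = 0.947) over 18 and 24 h. In the F test over the 6 oleic acid times Cyp1a1 was again the member called (1 of 51, beside 5.5% of features), with an adjusted p of 0.0237. That call was lost without oleic acid 1.5 h replicate 2 (adjusted p = 0.0791), oleic acid 24 h replicate 1 (0.0601) or oleic acid 24 h replicate 2 (0.0653).

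The other members of family 1 did not pass in any comparison. Cyp1b1, an AhR target that hydroxylates oestradiol, was at -1.41, -1.1 and -0.96 at 1 h, -0.82 and -0.61 at 1.5 h, -1.08 and -1.3 at 3 h, -1.09 and -1.58 at 4 h, -1.29 and -0.95 at 18 h, and -1.52 and -1.23 at 24 h in saline mice. With oleic acid the levels were -0.83, -1.69 and -0.83 at 1 h, -0.53 and -0.03 at 1.5 h, -0.78 and -1.38 at 3 h, -0.14, -1.19 and -0.3 at 4 h, -0.98, -1.38 and -0.94 at 18 h, and -0.9, -1.36 and -1.16 at 24 h. The groups overlapped at every time except 1.5 h, where both oleic acid arrays were the higher. Over 1 to 4 h it differed by 0.34 (0.01 to 0.67, adjusted p = 0.621), and late minus early in oleic acid mice by -0.36 (-0.73 to 0.00, adjusted p = 0.243). Cyp1a2, a liver enzyme of caffeine and aryl amine metabolism, ranged from -6.40 to 0.07 and is described with the hepatocyte markers.

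The receptor itself and its partner were measured on every array. Ahr ranged from 2.13 to 3.04 with a median of 2.56, and Arnt, with which it pairs on DNA, from 1.52 to 2.58 with a median of 2.09. The F test over time called 5.61% of all features in saline and 5.5% in oleic acid mice. Of 5 further AhR targets tested (Tiparp, Nqo1, Aldh3a1, Ugt1a6a and Gsta1), 1, Gsta1, was called over time, in both treatments. This glutathione transferase was at -3.68, -4.17 and -3.45 at 1 h, -4.19 and -3.31 at 1.5 h, -3.49 and -3.26 at 3 h, -2.32 and -2.34 at 4 h, -1.0 and -0.27 at 18 h, and 0.26 and -0.51 at 24 h in saline mice. The levels after oleic acid were -3.0, -4.88 and -3.09 at 1 h, -3.86 and -1.7 at 1.5 h, -2.76 and -2.33 at 3 h, -2.59, -2.35 and -1.9 at 4 h, -0.17, 1.34 and 0.31 at 18 h, and -0.19, -1.14 and -0.95 at 24 h. Every late Gsta1 level was above every early level of the same treatment, and late minus early was 2.92 (2.11 to 3.74, adjusted p = 0.000559) in saline and 2.68 (1.98 to 3.38, adjusted p = 0.000163) in oleic acid mice.

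**Figure D2:**
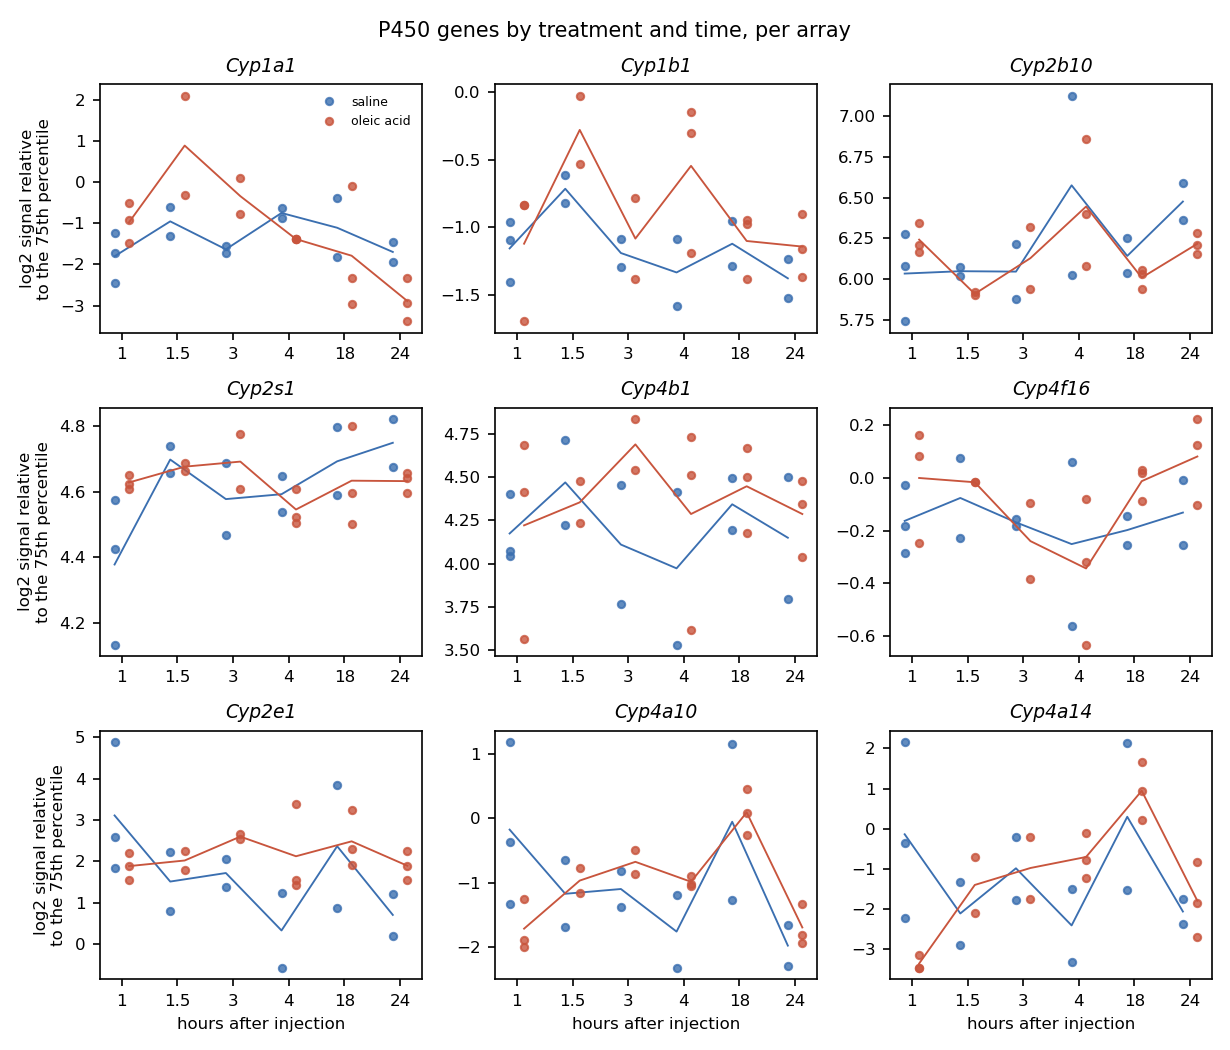
Log2 signal (array's 75th percentile subtracted) for 9 P450 genes against hours after injection, with 1 point per array and lines through the group means (saline blue, oleic acid red). Cyp1a1 declines from 1.5 to 24 h in oleic acid mice, Cyp2s1 and Cyp4f16 stay within a narrow band, and Cyp2e1, Cyp4a10 and Cyp4a14 spread widely among saline arrays of 1 h and 18 h.

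Cyp2b10, the CAR target of the 2b subfamily and a well known P450 of lung, varied little. In saline mice its level was 5.74, 6.08 and 6.28 at 1 h, 6.02 and 6.08 at 1.5 h, 5.88 and 6.22 at 3 h, 7.12 and 6.03 at 4 h, 6.25 and 6.04 at 18 h, and 6.59 and 6.36 at 24 h. After oleic acid it was at 6.21, 6.17 and 6.35 at 1 h, 5.92 and 5.9 at 1.5 h, 5.94 and 6.32 at 3 h, 6.4, 6.08 and 6.86 at 4 h, 6.03, 5.94 and 6.06 at 18 h, and 6.21, 6.28 and 6.16 at 24 h. Apart from 7.12 (saline 4 h replicate 1) and 6.86 (oleic acid 4 h replicate 3), every level lay between 5.74 and 6.59. Oleic acid minus saline was 0.01 (-0.26 to 0.27, adjusted p = 0.993) over 1 to 4 h and -0.20 (-0.56 to 0.17, adjusted p = 0.947) over 18 and 24 h. Its receptor CAR (Nr1i3) ranged from -3.67 to 0.27 and PXR (Nr1i2) from -5.89 to -1.51, the latter above background on 27 of the 29 arrays.

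Cyp2s1, a P450 of airway and other epithelia, was the steadiest member, with a within-group SD of 0.12. In saline mice it was at 4.13, 4.58 and 4.42 at 1 h, 4.74 and 4.66 at 1.5 h, 4.47 and 4.69 at 3 h, 4.54 and 4.65 at 4 h, 4.8 and 4.59 at 18 h, and 4.82 and 4.68 at 24 h. The oleic acid arrays gave 4.61, 4.62 and 4.65 at 1 h, 4.66 and 4.69 at 1.5 h, 4.61 and 4.77 at 3 h, 4.52, 4.61 and 4.5 at 4 h, 4.8, 4.5 and 4.6 at 18 h, and 4.6, 4.64 and 4.66 at 24 h. Every array but saline 1 h replicates 1 and 3 lay between 4.47 and 4.82. At 1 h the oleic acid arrays were all above the saline arrays, with a difference of 0.25 (0.00 to 0.50, adjusted p = 0.968), which did not pass. Of the other family 2 genes outside the hepatocyte group, Cyp2a4, a steroid hydroxylase, ranged from 2.13 to 5.27 and differed by 0.82 (0.09 to 1.55, adjusted p = 0.621) over 1 to 4 h. Cyp2u1, which hydroxylates long-chain fatty acids, ranged from 3.85 to 5.31, and Cyp2r1, a vitamin D 25-hydroxylase, from -1.09 to 0.23. Cyp2j6, of the subfamily that epoxidises arachidonic acid, ranged from -2.07 to -0.74 and differed by 0.36 (0.04 to 0.69, adjusted p = 0.621) over 1 to 4 h. Cyp2j9, of the same subfamily, ranged from -1.19 to 0.30. Neither was called in any of the comparisons.

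Cyp4b1, a lung P450 that activates the toxin 4-ipomeanol, gave 4.07, 4.05 and 4.4 at 1 h, 4.22 and 4.71 at 1.5 h, 4.45 and 3.77 at 3 h, 4.41 and 3.53 at 4 h, 4.19 and 4.49 at 18 h, and 3.8 and 4.5 at 24 h in saline mice. With oleic acid the levels were 4.41, 3.57 and 4.68 at 1 h, 4.23 and 4.47 at 1.5 h, 4.54 and 4.83 at 3 h, 4.51, 3.61 and 4.73 at 4 h, 4.5, 4.17 and 4.67 at 18 h, and 4.48, 4.04 and 4.34 at 24 h. Both treatments covered nearly the same range, from 3.53 to 4.71 in saline and from 3.57 to 4.83 in oleic acid mice, and the difference over 1 to 4 h was 0.21 (-0.18 to 0.59, adjusted p = 0.738). Cyp4f16, a fatty acid hydroxylase, gave -0.28, -0.18 and -0.03 at 1 h, 0.07 and -0.23 at 1.5 h, -0.18 and -0.16 at 3 h, 0.06 and -0.56 at 4 h, -0.25 and -0.14 at 18 h, and -0.26 and -0.01 at 24 h in saline mice. The levels after oleic acid were 0.08, 0.16 and -0.25 at 1 h, -0.02 and -0.02 at 1.5 h, -0.1 and -0.38 at 3 h, -0.08, -0.63 and -0.32 at 4 h, 0.02, 0.03 and -0.09 at 18 h, and -0.1, 0.12 and 0.22 at 24 h. Its difference was 0.01 (-0.19 to 0.22, adjusted p = 0.973) over 1 to 4 h and 0.20 (-0.08 to 0.48, adjusted p = 0.947) over 18 and 24 h. The further 4f and 4v members outside the hepatocyte group had a range of group means of 0.32 for Cyp4f13, 0.61 for Cyp4f15, 0.61 for Cyp4f17, 0.98 for Cyp4f39 and 0.56 for Cyp4v3.

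Cyp4f18, an enzyme of leukocytes that inactivates leukotriene B4, fell in saline mice between 4 and 18 h. In saline mice it was at 3.65, 3.74 and 3.77 at 1 h, 3.3 and 3.03 at 1.5 h, 3.36 and 3.76 at 3 h, 3.4 and 3.77 at 4 h, 2.71 and 2.47 at 18 h, and 3.71 and 3.49 at 24 h. After oleic acid it was at 3.59, 4.04 and 3.43 at 1 h, 3.4 and 3.5 at 1.5 h, 3.47 and 3.37 at 3 h, 2.97, 3.56 and 2.7 at 4 h, 3.38, 2.96 and 2.7 at 18 h, and 2.87, 3.58 and 2.82 at 24 h. Both saline 18 h arrays were below every other saline array. The 18 minus 4 h difference was -0.99 (-1.60 to -0.39, adjusted p = 0.0421), both groups lying on slide 3. The call was lost in 11 of 29 fits that left out 1 array and in 11 of 19 other settings. Late minus early was -0.41 (-0.78 to -0.05, adjusted p = 0.242) in saline and -0.36 (-0.67 to -0.05, adjusted p = 0.17) in oleic acid mice. The mean of 8 neutrophil markers was also lower at saline 18 h (1.96 and 1.97) than at saline 4 h (2.80 and 3.77). Of the 8 markers 2, Retnlg and Il1r2, were called lower there, beside 5.34% of features. At saline 24 h the marker mean was 2.70 and 2.42, below both 4 h arrays, while Cyp4f18 was at 3.71 and 3.49. Within groups, Cyp4f18 rose by 0.43 per unit of that mean (SE 0.14), a slope that did not pass (adjusted p = 0.765). Whether the neutrophil markers bear on the change was not tested further. In a bulk lung sample, fewer cells of a type and less RNA per cell cannot be told apart.

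Across the 29 arrays, 27 of the 51 P450 genes (52.9%) rose with the mean of 10 hepatocyte markers (Alb, Apoa1, Apoa2, Ttr, Serpina1a, Fgb, Ahsg, Tat, Apoc3 and Trf) within groups, where 1.29% of all features had a called positive slope. All 10 markers were above background on 29 of 29 arrays, none of them at 0. The plasma protein gene Alb, for example, ranged from 0.52 to 7.39. In saline mice the hepatocyte mean was 3.89, 6.04 and 1.65 at 1 h, 3.25 and 1.51 at 1.5 h, 2.32 and 3.53 at 3 h, 1.48 and 0.28 at 4 h, 4.69 and 1.03 at 18 h, and 1.47 and 2.03 at 24 h. The oleic acid arrays gave 1.94, 1.82 and 2.1 at 1 h, 2.5 and 3.85 at 1.5 h, 2.98 and 3.96 at 3 h, 1.57, 2.75 and 1.92 at 4 h, 3.5, 3.7 and 2.71 at 18 h, and 1.94, 1.42 and 1.22 at 24 h. Saline 1 h replicate 2 and saline 18 h replicate 1 were the highest of all arrays, saline 4 h replicate 2 the lowest, and the saline mice spread more widely than the oleic acid mice at 1 and 18 h.

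The called slopes ran from 0.33 to 1.2 log2 units per unit of the hepatocyte mean, with a median of 0.92, and 0 slopes were called negative, beside 0.151% of features. The steepest were those of Cyp2c67 (1.2), Cyp2c68 (1.18) and Cyp2d10, a liver P450 of the drug-oxidising 2d subfamily (1.16, SE 0.04, adjusted p = 9.41e-13). The 24 other genes had slopes from -0.26 to 0.48. Without saline 1 h replicate 2 and saline 18 h replicate 1, an alternative chosen after seeing the data, 17 of the 27 slopes were called, beside 0.591% of features. Of the 11 other marker lists, the alveolar type 1 list gave called slopes for 4 members, Cyp1b1, Cyp2c55, Cyp2r1 and Cyp2t4, beside 15.2% of features. The other 10 lists gave 0: club cell (beside 0.772% of features), ciliated cell (0.315%), alveolar type 2 (0%), endothelial (0.332%), smooth muscle (0.0992%), alveolar macrophage (0%), neutrophil (0.0518%), adipocyte (0.0388%), cardiac muscle (0.0518%) and red cell precursor (1.11%).

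The called slopes were spread unevenly over the subfamilies. The slope was called for 6 of 6 kept 3a genes, which oxidise steroids and drugs in liver, for 3 of 3 kept 4a genes, for 9 of 10 kept 2c genes (not Cyp2c55) and for 4 of 7 kept 2d genes. It was called for 0 of 3 kept 2j genes, for 1 of 7 kept 4f genes (Cyp4f14), and for none of Cyp2r1, Cyp2s1, Cyp2t4, Cyp2u1, Cyp4b1 and Cyp4v3. In family 1 it was called for Cyp1a2 alone. The group means of the 27 genes spanned a median of 3.53 log2 units, against 0.91 for the 24 others, and their within-group SD had a median of 1.14, against 0.34. These figures describe a split made on the same arrays and carry no test.

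**Figure D3:**
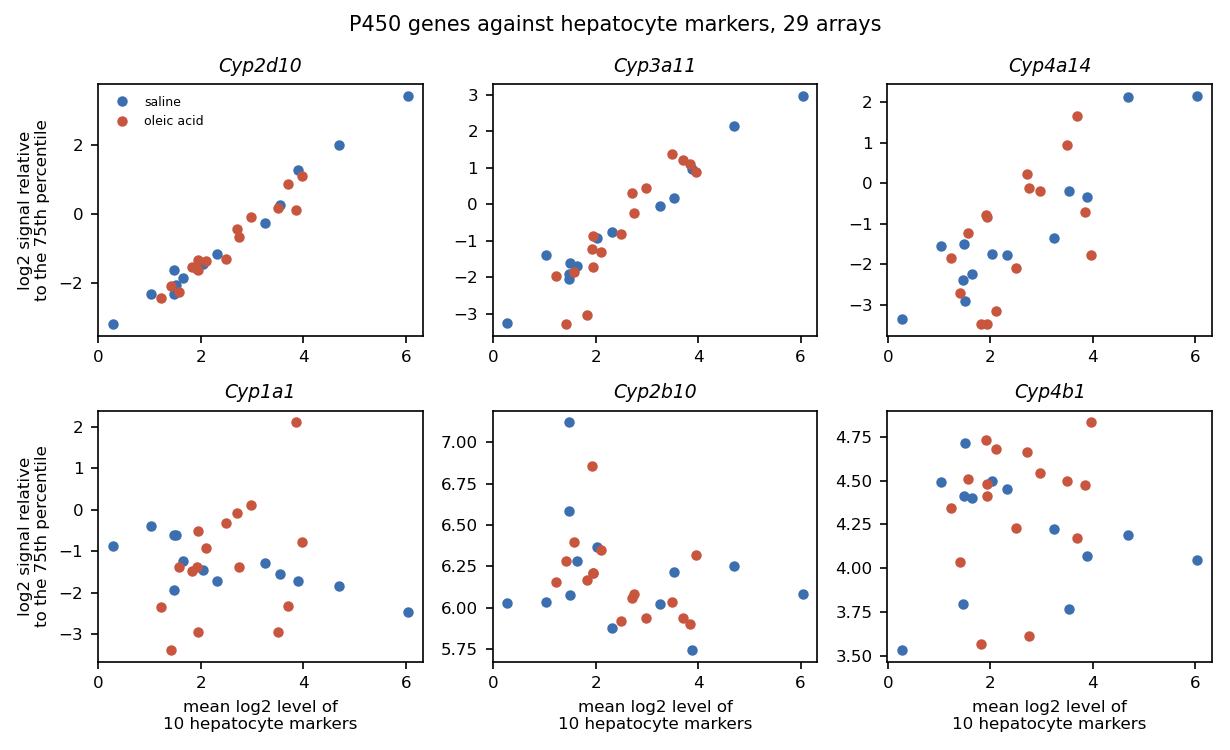
Log2 level of 6 P450 genes against the mean log2 level of 10 hepatocyte markers, with 1 point per array (29 arrays, saline blue, oleic acid red). Cyp2d10, Cyp3a11 and Cyp4a14 climb with the marker mean in both treatments, whereas Cyp1a1, Cyp2b10 and Cyp4b1 do not.

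Among the genes that followed the hepatocyte mean, Cyp2e1, which oxidises ethanol, was at 2.6, 4.88 and 1.85 at 1 h, 2.23 and 0.8 at 1.5 h, 1.37 and 2.07 at 3 h, 1.23 and -0.57 at 4 h, 3.85 and 0.88 at 18 h, and 0.2 and 1.22 at 24 h in saline mice. With oleic acid the levels were 1.56, 1.9 and 2.21 at 1 h, 1.8 and 2.24 at 1.5 h, 2.55 and 2.66 at 3 h, 1.44, 1.55 and 3.39 at 4 h, 2.29, 3.25 and 1.92 at 18 h, and 2.25, 1.55 and 1.9 at 24 h. Its highest level was on saline 1 h replicate 2 and its lowest on saline 4 h replicate 2, the arrays with the highest and lowest hepatocyte means. At 4 h all oleic acid arrays were above the saline arrays, with a difference of 1.79 (0.02 to 3.57, adjusted p = 0.609), which did not pass.

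The 4a genes are fatty acid omega-hydroxylases under PPAR alpha. Cyp4a10 was at -0.37, 1.18 and -1.34 at 1 h, -0.65 and -1.69 at 1.5 h, -1.37 and -0.82 at 3 h, -1.2 and -2.32 at 4 h, 1.16 and -1.27 at 18 h, and -2.29 and -1.66 at 24 h in saline mice. The levels after oleic acid were -1.89, -1.25 and -2.0 at 1 h, -1.16 and -0.77 at 1.5 h, -0.49 and -0.87 at 3 h, -1.02, -0.9 and -1.04 at 4 h, 0.08, 0.46 and -0.26 at 18 h, and -1.34, -1.94 and -1.81 at 24 h. Saline 1 h replicate 2 and saline 18 h replicate 1 gave the highest levels, and at 24 h the groups overlapped. Cyp4a14 was at -0.35, 2.16 and -2.23 at 1 h, -1.34 and -2.9 at 1.5 h, -1.78 and -0.2 at 3 h, -1.5 and -3.34 at 4 h, 2.13 and -1.54 at 18 h, and -2.39 and -1.75 at 24 h in saline mice. After oleic acid it was at -3.48, -3.48 and -3.16 at 1 h, -2.1 and -0.72 at 1.5 h, -0.2 and -1.77 at 3 h, -1.23, -0.11 and -0.79 at 4 h, 0.95, 1.66 and 0.22 at 18 h, and -0.84, -2.72 and -1.85 at 24 h. At 1 h all oleic acid arrays lay below the saline arrays, by -3.23 (-5.22 to -1.23) with an adjusted p of 0.968, and at 18 h the oleic acid values lay between the saline values. With the hepatocyte mean as a covariate, an alternative chosen after seeing the data, late minus early in oleic acid mice was 1.44 for Cyp4a14 (adjusted p = 0.00427), 0.81 for Cyp2c50 (0.0132), 0.65 for Cyp2c29 (0.0248) and -1.96 for Cyp1a1 (0.00526), so that 4 of 51 members were called beside 6.53% of features.

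Of 14 PPAR targets outside the family, 0 were called higher in any of these comparisons over time. Of all features, late minus early called 1.45% higher and 1.5% lower in saline mice, and 2.26% higher and 3.56% lower in oleic acid mice. Saline 18 h minus 4 h called 1.9% higher and 5.34% lower. Pdk4, a kinase that restrains glucose oxidation, was called lower late than early in saline (-2.11, -2.74 to -1.47, adjusted p = 0.00113) and in oleic acid mice (-1.65, -2.20 to -1.10, adjusted p = 0.00131). Cpt1a, which admits fatty acids to mitochondria, was called lower in saline mice (-0.58, adjusted p = 0.046), and Angptl4, an inhibitor of lipoprotein lipase, between saline 4 and 18 h (-3.21, adjusted p = 0.0118).

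The largest movement of members was between the saline mice of 4 and 18 h, which shared slide 3. Of 51 members 5 (9.8%) were called, beside 7.24% of all features: 4 were higher, beside 1.9% of features called higher, and Cyp4f18 was lower, beside 5.34%. The hepatocyte mean was 1.48 and 0.28 at 4 h and 4.69 and 1.03 at 18 h, and the 4 genes that rose all belong to the 27 that followed it. Those 27 were chosen with these same arrays. Adipocyte markers were also higher on both 18 h arrays (2.54 and 1.89, against 1.77 and 0.84 at 4 h), and neutrophil markers lower.

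Cyp3a59, a member of the liver 3a subfamily, was at -1.01, 0.99 and -2.76 at 1 h, -0.92 and -2.46 at 1.5 h, -2.74 and -1.85 at 3 h, -6.41 and -5.05 at 4 h, 0.52 and -2.35 at 18 h, and -3.62 and -2.76 at 24 h in saline mice. The oleic acid arrays gave -3.23, -2.52 and -2.87 at 1 h, -1.71 and -0.57 at 1.5 h, -1.06 and -1.07 at 3 h, -3.13, -2.37 and -2.73 at 4 h, -0.67, -0.24 and -1.25 at 18 h, and -2.17, -4.11 and -2.75 at 24 h. Of all non-control spots, 77.5% were well above background on saline 18 h replicate 2, against 54.1% on replicate 1. The saline 4 h arrays had 54.8% and 56.8%. What this did to the detection of Cyp3a59, Cyp3a16 and Cyp4f14 was not tested. For Cyp3a59, neither saline 4 h array was well above background, and both 18 h arrays were. The 18 h level was at least 11.3-fold higher (means of -0.92 at 18 h and -5.73 at 4 h, adjusted p = 0.0075), and Cyp3a59 was also the member called in the F test over the saline times (1 of 51, beside 5.61% of features, adjusted p = 0.0186). A fold written as at least takes, for each 4 h array, the higher of 2 levels. These are the gene's own dim level and the lowest level of any probe well above background on that array. For Cyp3a16 and Cyp4f14 the dim level of saline 4 h replicate 1 was the higher and was not replaced. Their folds are therefore estimates from a dim spot and not strict lower limits. Single arrays moved it: the fold was at least 4.16 without saline 18 h replicate 1, where the call was lost (adjusted p = 0.0649), and at least 30.4 without saline 18 h replicate 2. The call was lost also without saline 4 h replicate 1 (adjusted p = 0.0635).

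Cyp3a16, another liver 3a gene, was at -0.71, 1.2 and -3.22 at 1 h, -0.5 and -2.67 at 1.5 h, -2.11 and -1.35 at 3 h, -4.51 and -4.54 at 4 h, 0.91 and -2.1 at 18 h, and -4.16 and -1.99 at 24 h in saline mice. With oleic acid the levels were -2.69, -2.74 and -2.54 at 1 h, -1.81 and -0.58 at 1.5 h, -0.68 and -0.29 at 3 h, -2.73, -2.06 and -2.47 at 4 h, -0.36, 0.12 and -1.11 at 18 h, and -1.81, -3.07 and -2.62 at 24 h. As for Cyp3a59, 0 of 2 saline 4 h arrays were well above background, and the 18 h level was at least 13.5-fold higher (means of -0.59 and -4.53, adjusted p = 0.0317). It was at least 4.76-fold without saline 18 h replicate 1 and at least 38.6-fold without saline 18 h replicate 2. The call was lost without the first of these (adjusted p = 0.217) and without saline 4 h replicate 1 (0.113) or 2 (0.116). Cyp4f14, which oxidises leukotriene B4 in liver, was at -0.45, 1.04 and -3.77 at 1 h, -2.1 and -2.28 at 1.5 h, -2.5 and -1.57 at 3 h, -4.56 and -5.12 at 4 h, 0.08 and -1.86 at 18 h, and -2.96 and -0.94 at 24 h in saline mice. The levels after oleic acid were -3.72, -1.71 and -3.24 at 1 h, -3.23 and -1.4 at 1.5 h, -1.91 and -0.6 at 3 h, -4.39, -3.24 and -3.34 at 4 h, -2.24, -0.71 and -2.44 at 18 h, and -2.97, -3.83 and -4.13 at 24 h. Its saline 18 h level was at least 11.2-fold higher than at 4 h, where again 0 of 2 arrays were well above background (means of -0.89 and -4.84, adjusted p = 0.0399). Without saline 18 h replicate 1 this was at least 5.72-fold, and without saline 18 h replicate 2 at least 22.0-fold, and 5 of 29 fits that left out 1 array lost the call, among them both of these (adjusted p = 0.186 and 0.0819).

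Cyp2c38, of the 2c subfamily that epoxidises arachidonic acid, was at -0.49, 1.9 and -1.77 at 1 h, -0.53 and -2.19 at 1.5 h, -1.55 and -0.62 at 3 h, -1.93 and -2.67 at 4 h, 1.55 at 18 h, and -1.74 and -1.4 at 24 h in saline mice. After oleic acid it was at -1.77, -1.57 and -1.89 at 1 h, -0.86 and -0.37 at 1.5 h, -0.81 and -0.71 at 3 h, -1.53, -1.04 and -1.51 at 4 h, -0.33, 0.89 and -0.44 at 18 h, and -1.02, -1.75 and -1.99 at 24 h. The 18 h saline group held a single value, 1.55, because the spot on replicate 2 carried an outlier mark, and this lone array was assumed to vary like the other groups. The call of Cyp2c38 between 4 and 18 h was lost in 2 of 28 fits that left out 1 array. It was also lost in 6 of 18 other settings. The difference from 4 h was 3.85 (1.85 to 5.85, adjusted p = 0.0213), or 3.33 (adjusted p = 0.0161) with marked spots kept. With the hepatocyte mean as a covariate the Cyp2c38 difference, still from a single 18 h value, was 0.91 and was not called. In that fit 8 of 51 members (15.7%) were called, beside 14.6% of features. They included Cyp3a59 (3.33, adjusted p = 0.00267), Cyp3a16 (2.11, 0.00717) and Cyp4f14 (2.26, 0.0459). For these 3 genes neither saline 4 h array was well above background, so their differences rest on dim values.

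**Figure D4:**
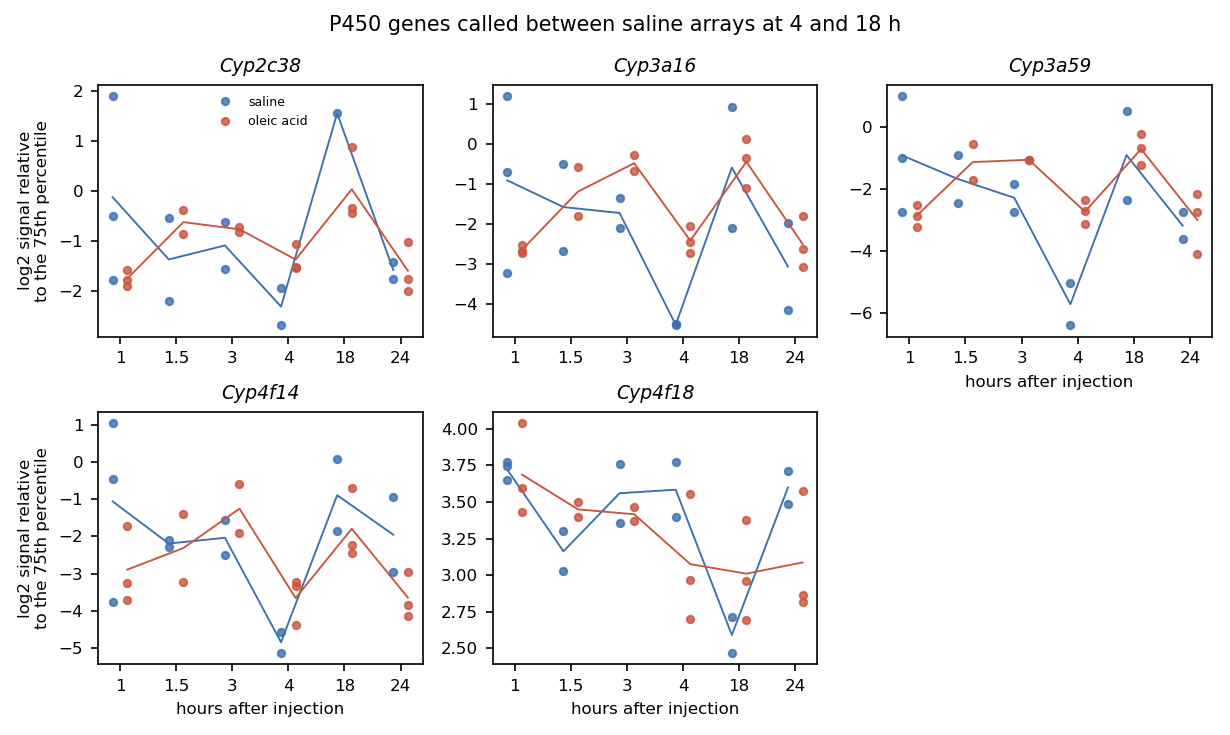
Log2 signal (array's 75th percentile subtracted) for the 5 genes called between saline 4 and 18 h, against hours after injection, with 1 point per array and lines through the group means (saline blue, oleic acid red). Cyp2c38, Cyp3a16, Cyp3a59 and Cyp4f14 are low in both saline 4 h arrays and highest on saline 1 h replicate 2, and Cyp4f18 is lowest in saline mice at 18 h.

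Which members were called between saline 4 and 18 h hung on the settings and on single arrays. Other settings lost the call of Cyp3a59 in 4 of 19, of Cyp3a16 in 9 of 19, and of Cyp4f14 and Cyp4f18 in 11 of 19 each. Without saline 18 h replicate 1, the array with the higher hepatocyte mean, 0 members were called, beside 5.61% of features. The count was 1 without saline 4 h replicate 1 (2.99% of features), 3 without saline 1.5 h replicate 1 (6.17%) or saline 4 h replicate 2 (3.65%), 9 without saline 18 h replicate 2 (1.36%) and 11 without saline 1 h replicate 3 (7.88%). In the F test over saline times the count was 0 without saline 4 h replicate 1 (4.24%) and 2 without saline 1 h replicate 2 (4.53%), oleic acid 4 h replicate 2 (6.92%) or oleic acid 24 h replicate 2 (5.24%). It was 6 without saline 18 h replicate 2 (3.79%) and 18 without saline 1 h replicate 3 (8.71%). In the F test over oleic acid times it was 2 without saline 1 h replicate 2 (4.63%) or oleic acid 1 h replicate 2 (3.97%) and 3 without saline 1 h replicate 3 (6.03%). Between the oleic acid mice of 18 and 24 h, all on slide 4, 0 of 51 members were called, beside 0% of features, and 14 members (27.5%) were lower at 24 h at an unadjusted p under 0.05, beside 0.819% of features lower, with 0 members higher, beside 1.35%. The median difference over the 27 genes that followed hepatocyte markers was -1.90, with 0 of 27 above 0, against -0.10 for the 24 others. The 27 were chosen on the same arrays, so this carries no test.

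Oleic acid against saline, the comparison the study was built for, gave no called member at any time. In limma 0 of 51 were called at 1 h (0% of features), 1.5 h (0%), 3 h (0%), 4 h (0.0172%), 18 h (0%) and 24 h (0.0129%), as well as for the mean over 1 to 4 h (0%), the mean over 18 and 24 h (0%) and the test of whether the oleic acid effect differed between times (0%). At 18 h the oleic acid and saline arrays lay on different slides, so treatment and slide cannot be told apart there. At an unadjusted p under 0.05 there were 21 members at 1 h (beside 4.51% of features), 20 of them lower, 1 at 1.5 h (1.33%, Cyp1a1), 0 at 3 h (6.56%), 5 at 4 h (8.16%, all higher), 1 at 18 h (1.92%, Cyp2j13, lower) and 0 at 24 h (4.87%). For the mean over 1 to 4 h there were 4, Cyp1a1, Cyp1b1, Cyp2a4 and Cyp2j6, beside 7.94%. The smallest adjusted p of any member at a single time was 0.609, at 4 h.

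The sign of the members' differences changed from time to time. The median of oleic acid minus saline over the 51 genes was -1.07 at 1 h (12 above 0; median of all features 0.04), 0.21 at 1.5 h (34 above 0; -0.01), 0.51 at 3 h (46 above 0; -0.02) and 0.77 at 4 h (37 above 0; -0.09). At 18 h it was 0.07 (30 above 0; -0.01) and at 24 h 0.01 (26 above 0; -0.11). The 27 genes that followed hepatocyte markers were chosen by slopes on these same arrays, so setting them against the 24 others carries no test. For the 27 the median was -1.99 at 1 h, 0.59 at 1.5 h, 0.67 at 3 h and 1.25 at 4 h, whereas that of the 24 others was 0.01, -0.06, 0.11 and -0.04. The hepatocyte mean differed in the same directions at 1 and 4 h, with saline mice at 3.89, 6.04 and 1.65 against oleic acid mice at 1.94, 1.82 and 2.1 at 1 h, and at 1.48 and 0.28 against 1.57, 2.75 and 1.92 at 4 h. With the hepatocyte mean as a covariate 0 members were called at any time. The fit without it also called 0, so these counts cannot show what the covariate does. Other lists moved as well. Adipocyte markers (7 kept, mean from 0.47 to 4.29) were at 1.77 and 0.84 in saline mice against 1.95, 2.7 and 4.29 in oleic acid mice at 4 h, where the median difference over the list was 1.78, against 1.4 for hepatocyte markers. At 1 h they were at 1.39, 1.61 and 2.24 against 1.9, 2.3 and 2.32. Red cell precursor markers (6 kept, from 0.64 to 2.92) were at 2.56, 2.92 and 1.45 in saline mice against 0.95, 1.65 and 0.64 in oleic acid mice at 1 h, a median of -1.32. At 4 h they were at 2.54 and 2.38 against 2.4, 2.49 and 2.26. No adipocyte or red cell precursor marker was called in an oleic acid minus saline comparison. The part of any of these lists in the members' differences was not tested further.

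**Figure D5:**
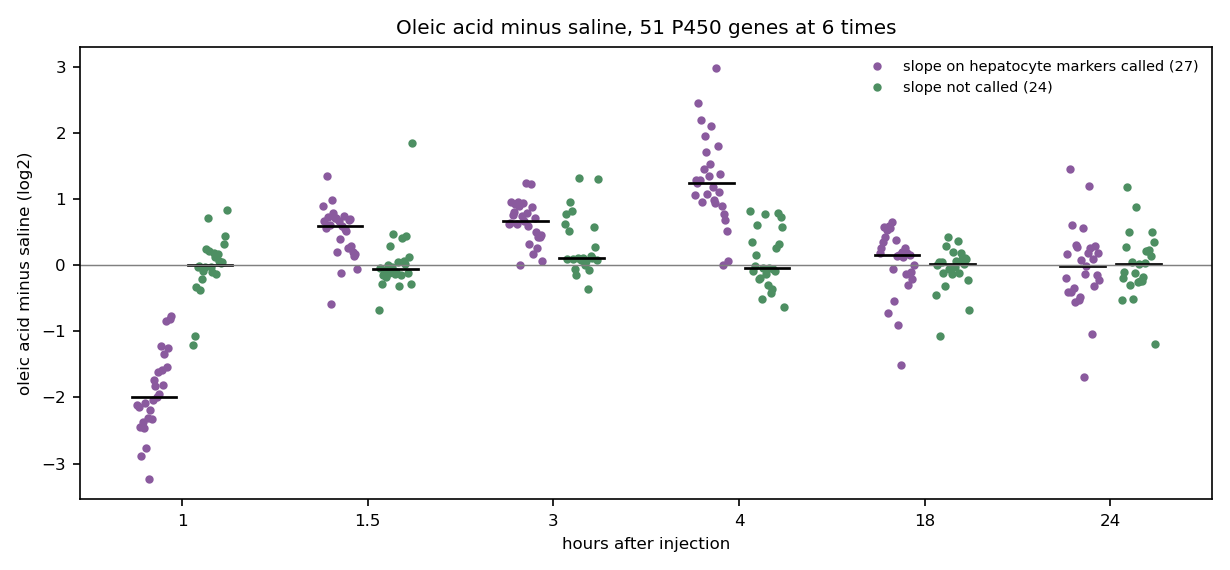
Oleic acid minus saline (log2) for the 51 P450 genes at 6 times, with 1 point per gene and a bar at the median, for the 27 genes whose slope on hepatocyte markers was called (purple) and the 24 others (green). At 1 h all 27 purple points lie below 0 and at 3 and 4 h all lie above it, while the green medians stay between -0.06 and 0.11. The split was made on the same arrays and carries no test.

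Groups that did not overlap were counted as well. Oleic acid and saline arrays stood apart for 3 members at 1 h (4.65% of features), 9 at 1.5 h (23.9%), 16 at 3 h (36%), 23 at 4 h (23%), 5 at 18 h (12.2%) and 11 at 24 h (21.9%). At 4 h oleic acid was the higher side in 21 of the 23, beside 8.15% of features, and at 3 h in 16 of 16, beside 17.6%. With arrays weighted by their fit, 29 of 51 members were called lower in oleic acid mice at 1 h, beside 4.69% of features. In that fit saline 1 h replicate 2, with the highest hepatocyte mean, had a weight of 2.36, against 0.467 and 0.427 for replicates 1 and 3.

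Genes that work beside the P450s were called over time and not by treatment, a contrast not particular to them. Treatment comparisons called at most 0.0172% of all features. Late minus early called 1.45% higher and 1.5% lower in saline mice, and 2.26% higher and 3.56% lower in oleic acid mice. Saline 18 h minus 4 h called 1.9% higher and 5.34% lower. No member of any of the 8 lists of pathway genes was called in an oleic acid minus saline comparison. Of 16 electron donors and haem enzymes, Uros, of haem synthesis, was called higher late than early in saline (0.54, 0.27 to 0.80, adjusted p = 0.0267) and oleic acid mice (0.41, 0.18 to 0.63, adjusted p = 0.0323), and Alas1, the rate-limiting haem enzyme, lower in oleic acid mice (-0.66, -0.96 to -0.36, adjusted p = 0.00945). Por, the P450 reductase, ranged from 4.11 to 5.77 with a median of 4.73 and was lower at saline 18 h (4.47 and 4.11) than at 4 h (5.77 and 5.24), by -1.22 (-1.88 to -0.55, adjusted p = 0.0267). Of 13 receptors, Nr1h3, the sterol receptor LXR alpha, was called higher late in both treatments (0.50 in saline, adjusted p = 0.0344, and 0.54 in oleic acid mice, adjusted p = 0.00633), and Pparg lower in oleic acid mice (-0.38, adjusted p = 0.0176).

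Of 11 epoxide hydrolases and eicosanoid synthases, Ptgs1, a cyclooxygenase, was called lower late in oleic acid mice (-0.48, adjusted p = 0.00653) and lower at 18 than at 4 h in saline mice (-1.14, adjusted p = 0.00218). Ephx1, the microsomal epoxide hydrolase (-0.63, adjusted p = 0.0443), and Ptgis, prostacyclin synthase (-0.72, adjusted p = 0.0459), were called lower in the second of these. Of 28 other xenobiotic enzymes 1 was called, Cbr3, a carbonyl reductase, lower late in oleic acid mice (-0.72, adjusted p = 0.00758), beside 3.56% of features called lower. Clock genes and glucocorticoid-induced genes gave most calls, all of them lower. Of 16 clock genes 2 were called lower late in saline mice (beside 1.5% of features called lower), 6 in oleic acid mice (3.56%) and 8 between saline 4 and 18 h (5.34%). Of 10 glucocorticoid-induced genes 5, 7 and 8 were called lower in the same comparisons (Per1 is on both lists). Dbp, a clock-driven factor that regulates P450 genes in liver, ranged from 0.55 to 6.00 with a median of 3.20, and was called lower late in oleic acid mice (-2.16, adjusted p = 0.0265) and between saline 4 and 18 h (-4.05, adjusted p = 0.0291).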

How the data were processed

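Whole-lung RNA (200 ng, Cy3) was hybridised to arrays of 62976 spots (3671 controls) whose spots the authors read out in Agilent Feature Extraction (version 10.5.1.1 in the submitters' processing notes). Per the file headers, the deposited scanner files hold an intensity per spot, corrected for background and replaced by a surrogate where dim, with flags of 0 or 1. A further file deposited by the authors holds log2 values and served as an alternative.

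Samples were grouped by the labelled treatment and time. In R 4.3.3 (package data.table, version 1.17.8) the log2 intensity of 59305 non-control spots was taken relative to the array's 75th percentile, spots with an outlier flag were dropped, and spots of each of 55681 probes were averaged. Each gene name was represented by its brightest probe, kept if well above background on at least 50% of 29 arrays. The 12 group means were fitted in limma 3.58.1 (statmod 1.5.0) with empirical Bayes moderation, for 15 comparisons. The fit was tested on simulated data. Every member could be named. Values on each array are given for called members and 9 others of known role. The members, gene lists and tests were chosen with earlier results of these data known. Alternatives changed background correction, scaling, filter, probe summary, arrays, slide, replicate number as a block, weights, moderation and threshold.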

Additional observations from a re-analysis of the deposited data

How the results depend on the processing

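Percentages in parentheses are the share of all features called in the same fit. No call by treatment depended on the settings except at 1 h and 18 h. With array weights 29 members were called at 1 h (4.69%), all lower with oleic acid, and at 18 h Cyp2j13 (1 member, 0.114%) was called with 24 arrays, without the 5 arrays that had 72.2% to 82.4% of spots above background. Counts over time moved more. For saline 18 h against 4 h (5 members, 7.24%, in the fit reported), they were 2 with normexp (5.57%) or no filter (2.42%), 3 with quantile normalization (3.49%) or slide as a fixed term (6.34%), 1 with the deposited table (3.94%), array weights (3.17%) or a threshold of 0.01 (1.34%), 0 with median centring (0.147%) or all 31 arrays (0.0729%), and 12 without saline 1 h replicates 1 and 2 (7.5%). For the F test over saline times (1 member, 5.61%) they were 2 with quantile normalization (3.2%), 24 arrays (1.72%), slide as a random term (8.25%) or without saline 1 h replicates 1 and 2 (5.67%), 0 with median centring (0.142%), the deposited table (3.24%), 31 arrays (0.0386%) or a threshold of 0.01 (1.08%), 23 with array weights (15.2%) and 3 with trend and robust moderation (7.22%). For the F test over oleic acid times (1 member, 5.5%) they were 0 with quantile normalization (3.68%), median centring (0.177%), 24 arrays (2.23%) or a threshold of 0.01 (1.57%), and 3 without saline 1 h replicates 1 and 2 (5.67%). With array weights 11 of 51 members (21.6%) were called, a smaller share than that of all features (29.1%). Late against early, oleic acid mice (1 member, 5.82%) gave 0 with median centring (0.177%) or 31 arrays (0.223%) and 3 with array weights (13.4%), and saline mice (0 members, 2.95%) gave 1 with quantile normalization (2.67%), 24 arrays (1.73%) or without saline 1 h replicates 1 and 2 (3.58%).

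Of alternatives chosen after seeing the data, the hepatocyte mean as a covariate gave 3 members for saline over time (5.88% of members, 12.6% of features), 2 for oleic acid over time (3.92% of members, 6.69% of features), 4 for oleic acid late against early (6.53%) and 8 for saline 18 h against 4 h (14.6%). Without the 2 arrays highest in hepatocyte markers these were 5 for oleic acid over time (4.4%) and 1 for saline 18 h against 4 h (5.17%), and 17 hepatocyte slopes were called. Without saline 18 h replicate 2, its group held replicate 1 alone. Leaving out 1 array at a time changed the counts of oleic acid against saline at 18 h and saline late against early only there. It gave 0 to 18 for saline over time, 0 to 3 for oleic acid over time and 0 to 11 for saline 18 h against 4 h, where the highest counts stood beside 8.71%, 6.03% and 7.88% of features. Whether shared replicate numbers pair the arrays could not be settled: of 12 pairs, with deviations correlated from -0.70 to 0.60, 6 were above 0.1. In a group of 2 arrays the deviations mirror each other, so the pairs are not independent. With replicate number as a block the F test over saline times called 3 members (5.75%), and the block moved no other count by over 1.5 times. The cause was not tested for any of these shifts. Median centring moved the median of all features between saline 4 and 18 h from -0.09 to -0.55, and at 1.5 h from -0.01 to 0.28. The members' median differences kept their sign under normexp, quantile normalization, median centring and the deposited table at 1, 1.5, 3 and 4 h, but not at 18 h or 24 h under normexp (-0.00 and -0.09).

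Groups of 2 or 3 arrays, slides that follow time, dim probes near background and probes shared between relatives limit these results, and the groups are too small to be tested for outlying arrays.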
